A study of Caenorhabditis elegans with 14 samples.

Results

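Glia that wrap ciliated sensory endings were followed here through 8 genes: vap-1, fig-1, daf-6, che-14, lit-1, kcc-3, mls-2 and lin-26. The members were chosen by name, and every probe set annotated to 1 of them alone was taken. All 8 of the 8 named genes were on the array, with 16 probe sets, of 17118 genes and 20766 probe sets annotated to a single gene. The genes vap-1, lit-1 and mls-2 had 3 probe sets each, che-14 and lin-26 had 2 each, and fig-1, daf-6 and kcc-3 had 1 each. Their locus tags in the RefSeq gene table are CELE_F11C7.3 (vap-1), CELE_F53B7.5 (fig-1), CELE_F31F6.5 (daf-6), CELE_F56H1.1 (che-14), CELE_W06F12.1 (lit-1), CELE_K02A2.3 (kcc-3), CELE_C39E6.4 (mls-2) and CELE_F18A1.2 (lin-26). Of the 16 probe sets, 3 have names ending in _x_at and 7 in _s_at, which mark probes that can match more than 1 transcript.

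The series measured RNA of whole Caenorhabditis elegans on Affymetrix arrays, to ask how the transcription factor DAF-19 controls expression at different times of life. The L1 groups (newly hatched, first larval stage) held 4 arrays of animals mutant for both daf-19 and daf-12 and 4 arrays of daf-12 mutants as controls. The adult groups held 3 arrays of each of the same genotypes, so every animal in all 4 groups carried a daf-12 mutation and no group was wild type. Adults were titled young, while the growth protocol puts their harvest at 50 hours beyond L4. No allele of either gene is named, which limits what is known of the mutants as models. The replicates are called biological, and nothing says whether equal numbers shared a culture. A p-value here sets a difference against the spread between these arrays as the given fit estimates it.

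The amphid is the main sensory organ of the worm's head, in which ciliated neurons reach the outside through a channel built by a sheath and a socket glial cell. Sheath glia shape this channel and secrete a matrix into it, and they influence the endings they surround. DAF-19 is an RFX factor known for switching on genes of cilia in the neurons, not for acting in glia. The members cover a secreted protein (VAP-1), a thrombospondin-domain protein needed for dye filling of neurons (FIG-1), shapers of the channel lumen (DAF-6, CHE-14 and LIT-1), an ion transporter (KCC-3) and regulators of glial fate (MLS-2 and LIN-26).

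Values are the deposited log2 signals, so a difference of 1 is a doubling. Both daf-19 probe sets separated the genotypes in the labelled direction: in the brighter, mutant arrays spanned 8.64 to 9.07 against 9.20 to 9.82 in controls at L1, and 7.78 to 7.85 against 8.28 to 8.52 in adults. The 3′ minus 5′ signal of the Gapdh control probes, a measure of RNA or labelling quality, was 3.83 to 4.12 in L1 mutants, 3.16 to 3.83 in L1 controls and -0.54 to -0.36 in adults. The summed signal of 10 markers of ciliated sensory neurons spanned 8.58 to 8.79 in L1 mutants and 8.59 to 8.85 in L1 controls. In adults it spanned 10.46 to 10.53 in mutants and 10.29 to 10.48 in controls. Such a sum follows its brightest markers. Relative to each array's median, 9 of the 10 were called lower and 1 higher in adults of both genotypes. In adult controls 5 of them, and in adult mutants 4, lay below the lower quartile on every array. By brightest probe set, 0 of the 10 were called between genotypes. A dimmer probe set of tax-4, 1 of the 10, was higher in L1 mutants (0.84, limma adjusted p = 9.52e-05). Its mean in L1 controls, 3.29, lay below the lower quartile of signal there (3.71 to 3.76), so the size of this difference is uncertain. The difference of this probe set between stages also passed (-0.80, limma adjusted p = 0.00854). Glia are a small share of a whole worm, and lin-26, lit-1 and mls-2 are also known outside glia, so the levels below are those of the animal. In such bulk RNA, fewer glial cells and less RNA per glial cell cannot be told apart.

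Across genotypes at L1, vap-1 had the only large difference among the 8 genes, and it lay higher in the daf-19 mutants. With a mean for each group and no pairing of arrays, limma called 0 of the 16 glial probe sets, against 1.14% of all 22548 tested. Unadjusted p was under 0.05 for 3 of the 16, all of vap-1, and for 9.87% of all. The median of the 16 differences was -0.004, against 0.005 over all probe sets. The arrays of the genotypes overlapped in all 16, while they did not overlap in 4.38% of all probe sets. Part of the spread between L1 arrays was shared between genotypes: deviations from the group mean over all probe sets correlated by 0.19 to 0.42 in each of the 4 pairs of equal number. In pairs of unequal number these correlations ran from -0.33 to 0.18, the highest for mutant array 3 with control array 2. Fitted with replicate number as a block, limma called 3 of the 16 glial probe sets at L1, again those of vap-1, against 2.33% of all.

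VAP-1 belongs to a family of secreted proteins related to venom allergens, and its gene is a standard marker of the amphid sheath. Its brightest probe set read 8.0, 9.53, 9.06 and 9.39 in L1 mutant arrays 1 to 4 and 7.67, 8.26, 8.03 and 8.32 in the control arrays of those numbers. Mutant array 1 was the low one, below 3 of the 4 controls, and control array 1 was the lowest control; the other mutant arrays lay above every control. Each mutant array exceeded the control of its own number, by 0.33, 1.27, 1.03 and 1.07.

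The second probe set read 8.19, 9.33, 8.99 and 9.44 in L1 mutants and 7.42, 8.12, 8.03 and 8.51 in controls. The third read 7.66, 8.98, 8.57 and 8.98 in L1 mutants and 6.99, 7.85, 7.56 and 7.89 in controls. In both, array 1 was again the lowest of its group in each genotype, and the mutant was higher in 4 of 4 numbered pairs, by 0.77 to 1.21 and by 0.67 to 1.13. The 3 probe sets report on 1 gene and can share probes or targets, and they followed each other closely (r of 0.96 to 0.98 over 14 arrays with each stage's mean removed), so they are not 3 independent measurements.

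The L1 differences of the 3 vap-1 probe sets were 0.925, 0.97 and 0.975, or 1.90-, 1.96- and 1.97-fold. Without pairing, their standard errors were 0.28, 0.28 and 0.29 and limma's adjusted p was 0.183, 0.146 and 0.171, so none was called. With the replicate block the standard errors fell to 0.14, 0.13 and 0.12 and the adjusted p to 0.00625, 0.00365 and 0.00276. Array 1 decided the unpaired result: without L1 mutant array 1 the differences were 1.26, 1.23 and 1.27, with adjusted p of 0.00654, 0.0210 and 0.0192. Gapdh 3′ minus 5′ signal was also higher in the mutant of each L1 pair, and with it as a covariate beside the block the differences were 0.81, 0.91 and 0.97 (limma adjusted p = 0.0845, 0.0599 and 0.0429). The first 2 of these calls therefore ended in that fit, which was added after the data were seen. The summed signal of 9 epidermal markers was 13.34 to 13.57 in L1 mutants and 13.61 to 13.79 in L1 controls, with 0 of the 9 called by limma and 2 at an unadjusted p under 0.05; its part in the vap-1 values was not tested.

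**Figure D1:**
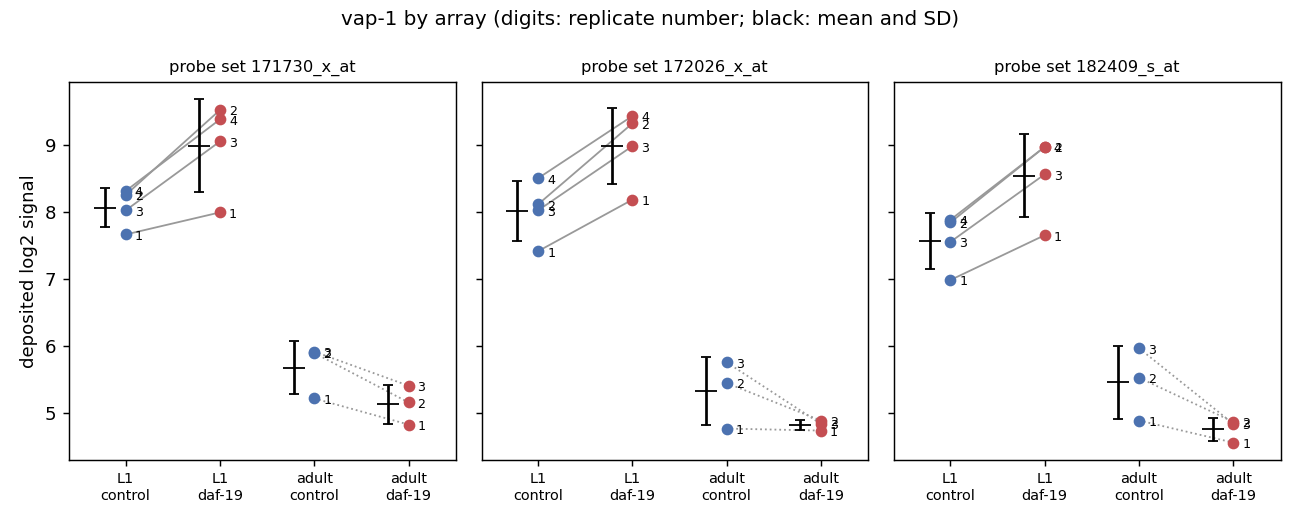
Deposited log2 signal of the 3 vap-1 probe sets (vertical axis) in each array of the 4 groups (horizontal axis); points are arrays with their replicate number, black bars the mean and SD of 4 L1 or 3 adult arrays, and lines join arrays of equal number (solid at L1, dotted in adults). The solid lines rise from control to mutant in 4 of 4 pairs. The adult points lie between 4.56 and 5.97, below every L1 point, and the dotted lines fall in 3 of 3. Equal numbers do not establish pairing in adults.

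In adults the vap-1 probe sets exceeded on average 29.4% to 45.8% of the probe sets on an array, and the difference lay in the other direction. Its brightest probe set read 4.83, 5.16 and 5.41 in adult mutants and 5.22, 5.90 and 5.92 in controls, so that 1 mutant array stood above the lowest control. The third probe set read 4.56, 4.87 and 4.84 in mutants and 4.89, 5.53 and 5.97 in controls, which did not overlap. The differences were -0.55, -0.50 and -0.71 (SE 0.33, 0.32 and 0.34; limma adjusted p = 0.880, 0.921 and 0.664), and 0 of the 3 passed.

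The stage dependence of the vap-1 difference, adult minus L1, was -1.47, -1.47 and -1.68 in the 3 probe sets. It did not pass without pairing (limma adjusted p = 0.176, 0.163 and 0.119), where 0.914% of all probe sets did. It passed with the replicate block (adjusted p = 0.00568, 0.00437 and 0.00168), where 1.86% of all did. In adults, same-numbered arrays correlated by 0.44, 0.11 and 0.04, which does not establish pairing, so a block on the L1 arrays alone was also fitted, and the 3 values passed there too (0.0283, 0.0152 and 0.0118). They did so as well with the block and the Gapdh covariate together (0.0465, 0.0385 and 0.0151). Without pairing and with the Gapdh covariate alone, they did not (0.417, 0.404 and 0.285).

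Of the other 13 glial probe sets none was called between genotypes at L1, with or without the block, and their differences ran from -0.12 to 0.32. DAF-6, a Patched-related membrane protein, restrains the size of the channel. Its probe set read 5.12, 5.26, 5.26 and 5.28 in L1 mutants and 5.30, 5.33, 5.29 and 5.17 in controls, a difference of -0.04 with a 95% interval of -0.21 to 0.12. CHE-14, related to Dispatched and needed for secretion at apical surfaces, works with DAF-6. Its brighter probe set read 5.44, 5.15, 5.19 and 4.91 in L1 mutants and 5.35, 5.33, 5.23 and 5.10 in controls, and the difference of -0.08 had an interval of -0.36 to 0.20. Its dimmer probe set lay at 3.86 to 3.95 in mutants and 3.87 to 3.95 in controls.

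LIT-1, a Nemo-like kinase, opposes DAF-6 and favours a wider channel. Its brightest probe set read 7.89, 8.17, 8.04 and 7.59 in L1 mutants and 7.43, 7.91, 7.95 and 7.11 in controls, higher in the mutant of 4 of 4 numbered pairs while the groups overlapped. The differences of its 3 probe sets were 0.32, 0.16 and 0.22 with 95% intervals of -0.09 to 0.74, -0.14 to 0.46 and -0.06 to 0.50, and limma's adjusted p was 0.678, 0.838 and 0.664. With the block these became 0.306, 0.460 and 0.399. The blocked intervals were 0.03 to 0.61, -0.02 to 0.35 and -0.01 to 0.45.

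FIG-1 varied widely between L1 arrays and not by genotype. It read 6.24, 7.27, 7.11 and 6.78 in mutants and 6.57, 6.85, 7.06 and 7.02 in controls, with mutant array 1 the lowest as for vap-1, and the difference was -0.025 (95% interval -0.43 to 0.38). A further probe set that lists fig-1 under 2 gene identifiers was left out of all counts; its L1 means were 6.87 in mutants and 6.86 in controls. KCC-3, a potassium and chloride cotransporter of the sheath glia that shapes the endings of thermosensory neurons, read 7.43, 7.37, 7.19 and 7.51 in L1 mutants and 7.57, 7.50, 7.45 and 7.45 in controls. Its difference of -0.12 had an interval of -0.32 to 0.08.

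The fate regulators were level at L1. MLS-2 is a homeodomain factor needed for the sheath glia of the cephalic sense organs. Its brightest probe set read 6.84, 7.50, 7.62 and 7.18 in L1 mutants and 7.30, 7.22, 7.48 and 7.30 in controls, and the differences of its 3 probe sets were -0.04, -0.025 and 0.08. LIN-26 is a zinc-finger factor that keeps epidermal and glial cells from other fates. Its brighter probe set read 9.91, 10.47, 10.33 and 9.86 in L1 mutants and 10.26, 10.42, 10.22 and 10.03 in controls, a difference of -0.09 (interval -0.36 to 0.18), and the dimmer differed by 0.01. The widest of these 5 intervals reached -0.38 and 0.30, so a change past 0.4 in either direction lay outside them.

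**Figure D2:**
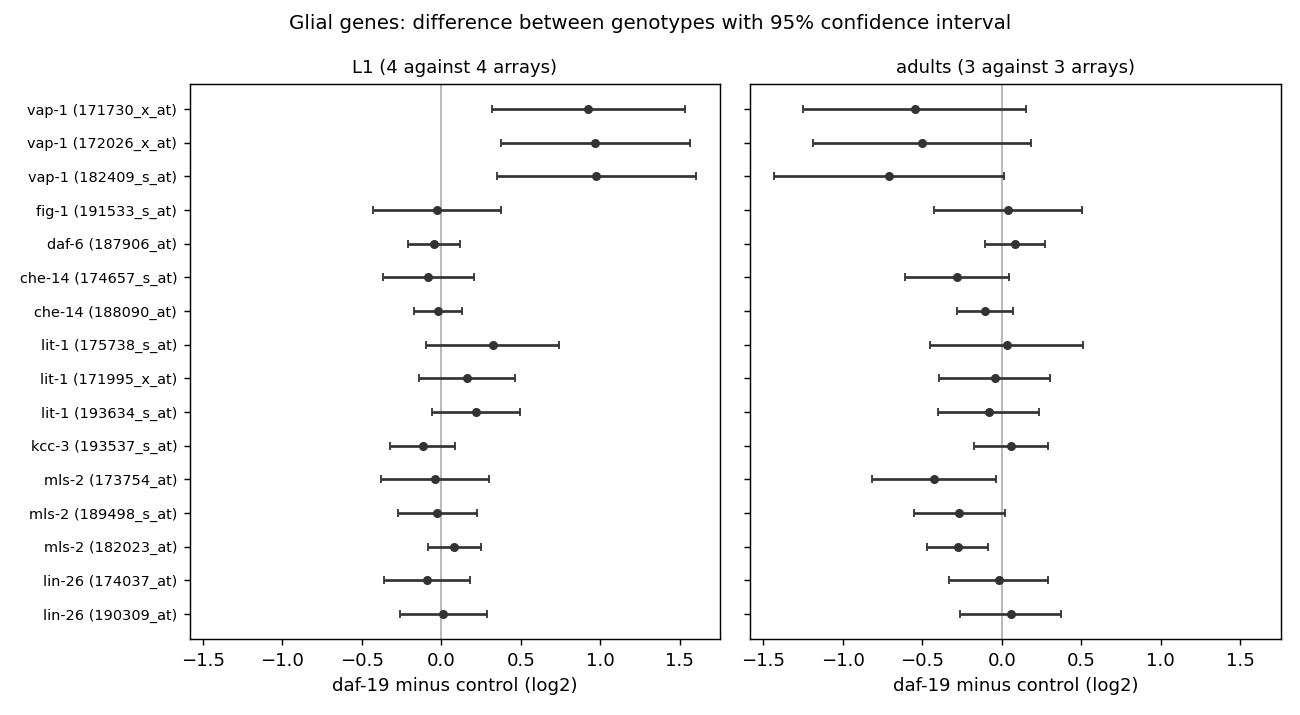
Difference daf-19 minus control in log2 units (horizontal axis) for each of the 16 glial probe sets (vertical axis) at L1, with 4 against 4 arrays, and in adults, with 3 against 3; points are limma estimates without pairing and bars their 95% confidence intervals, not adjusted for the number of probe sets. At L1 only the vap-1 intervals leave 0, and in adults 2 mls-2 intervals do.

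Among adults limma called 0 of the 16 glial probe sets between genotypes, against 1.02% of all. Unadjusted p was under 0.05 for 2 of the 16, both of mls-2, and for 7.88% of all. The median of the 16 differences was -0.09, against 0.02 over all. Arrays of the genotypes did not overlap in 2 of the 16, 1 of vap-1 and 1 of mls-2, which is 12.5% beside 13.3% of all probe sets. Adult mls-2 probe sets exceeded on average 16.7% to 40.2% of the probe sets on an array. The brightest read 4.44, 4.67 and 4.56 in mutants and 4.64, 5.24 and 5.07 in controls, and the dimmest read 4.20, 4.28 and 4.29 against 4.36, 4.54 and 4.70.

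In all 3 mls-2 probe sets each adult mutant lay below the control of its number, though adult numbers do not establish pairing. Only in the dimmest did the groups not overlap. The differences were -0.43, -0.27 and -0.28 (SE 0.18, 0.13 and 0.09; limma adjusted p = 0.546, 0.722 and 0.257). The dimmest probe set lay below the lower quartile of signal on all 8 L1 arrays and on 3 of 3 adult mutant arrays, so its size is uncertain. Without adult control array 1 its difference was -0.36 and passed (adjusted p = 0.0385). The summed signal of 9 epidermal markers, tissue in which some of these genes are also active, was 13.72 to 14.03 in adult mutants and 13.96 to 14.47 in controls. Of these 9 markers 0 were called, 5 had an unadjusted p under 0.05, and 8 lay lower in adult mutants (median -0.34); their part in the mls-2 values was not tested.

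The other adult members were not called between genotypes, except the brighter che-14 probe set with array weights (-0.38, adjusted p = 0.0252). The brighter che-14 probe set read 4.36, 4.19 and 4.42 in mutants and 4.25, 4.71 and 4.85 in controls, a difference of -0.28 with a 95% interval of -0.61 to 0.05. It lay below the lower quartile of signal on 3 of 3 mutant arrays and 1 of 3 control arrays, so its size is uncertain. The dimmer che-14 probe set lay below it on 3 of 3 arrays of each genotype. Adult fig-1 read 4.87, 4.89 and 4.92 in mutants and 4.55, 5.05 and 4.97 in controls, and adult daf-6 read 4.76, 4.94 and 4.81 against 4.62, 4.84 and 4.80. The 3 lit-1 probe sets differed by -0.08 to 0.03, kcc-3 by 0.06 and the 2 of lin-26 by -0.02 and 0.06. Outside vap-1, no member's difference between the stages was called without pairing (limma adjusted p from 0.268). With array weights that of the dimmest mls-2 probe set passed (adjusted p = 0.0487).

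Between stages most members changed place on the array. The arrays of each stage appear to have been scaled apart, with medians of 4.72 to 4.76 at L1 and 5.91 to 6.02 in adults, so each value was taken relative to its array's median. Against that median, limma called 14 of the 16 glial probe sets in controls, 3 higher and 11 lower in adults, where 86.2% of all probe sets were called. In daf-19 mutants it called 16 of 16, 3 higher and 13 lower, beside 85.1% of all. The median change of the glial probe sets was -1.39 in controls and -1.33 in mutants, against -0.33 and -0.29 over all. On the deposited scale, without subtraction, the calls were 7 higher and 8 lower in controls and 5 higher and 8 lower in mutants, with 16935 higher and 3377 lower over all in controls. Stage, scaling, RNA quality and the adult germline cannot be told apart in these arrays: the summed signal of 8 germline markers was 7.85 to 8.27 at L1 and 15.10 to 15.42 in adults.

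The changes of the 3 vap-1 probe sets relative to the array median were -3.62, -3.92 and -3.34 in controls and -5.06, -5.37 and -4.99 in mutants, and every adult array lay below every L1 array. As a rank, the brightest vap-1 probe set exceeded 87.0% of the probe sets on L1 control arrays and 45.8% on adult control arrays. The brightest mls-2 probe set fell in controls by 3.57 on the log2 scale and kcc-3 fell by 2.65. The changes in controls were -3.245 for fig-1, -1.88 for the brighter che-14 probe set and -1.75 for daf-6. In controls these falls, and those of vap-1, were called on the deposited scale too. The order of levels among different genes was not read, since signals of different probes are not on 1 scale.

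For 4 members (lin-26, lit-1, che-14 and mls-2) the probe sets of a single gene gave different changes between stages. The 2 lin-26 probe sets read 10.23 ± 0.16 (SD, n = 4) and 5.08 ± 0.14 in L1 controls but 10.43 ± 0.07 (SD, n = 3) and 10.86 ± 0.07 in adult controls. The second therefore moved from exceeding 55.2% of probe sets to exceeding 94.0%, while the first went from 96.5% to 91.3%; their changes in controls relative to the array median were 4.56 and -1.03. For lit-1, the 3 probe sets read 7.60, 6.66 and 4.65 in L1 controls and 8.44, 8.72 and 8.37 in adult controls. The dimmest at L1 rose by 2.50 against the median, the next by 0.83, and the brightest changed by -0.38, which did not pass (adjusted p = 0.107). With joint quantile normalization the middle one changed by 0.066 (adjusted p = 0.746), so that its call ended, and the brightest by -1.11 (adjusted p = 0.000106), which passed. The 2 che-14 probe sets changed by -1.88 and -1.01 in controls relative to the median, while on the deposited scale the brighter still fell and the dimmer rose by 0.218 (adjusted p = 0.0144).

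These arrays also differed between stages in the 3′ minus 5′ signal given above. Where each probe set lies along its transcript is not given in the sources used here, and the part of that signal in these differences was not tested. For mls-2 the dimmest probe set exceeded 13.5% of probe sets on L1 controls and 24.5% on adult controls, while the brightest went from 81.3% to 34.3%. A direction between stages is therefore not given for lin-26 or lit-1 as genes, that of che-14 rests on its brighter probe set on the deposited scale, and that of mls-2 in controls rests on its 2 brighter probe sets relative to the array median and on the brightest alone on the deposited scale. The brighter che-14 probe set lay below the lower quartile of signal on 3 of 3 adult mutant arrays and 1 of 3 adult control arrays, so the size of its fall is uncertain.

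**Figure D3:**
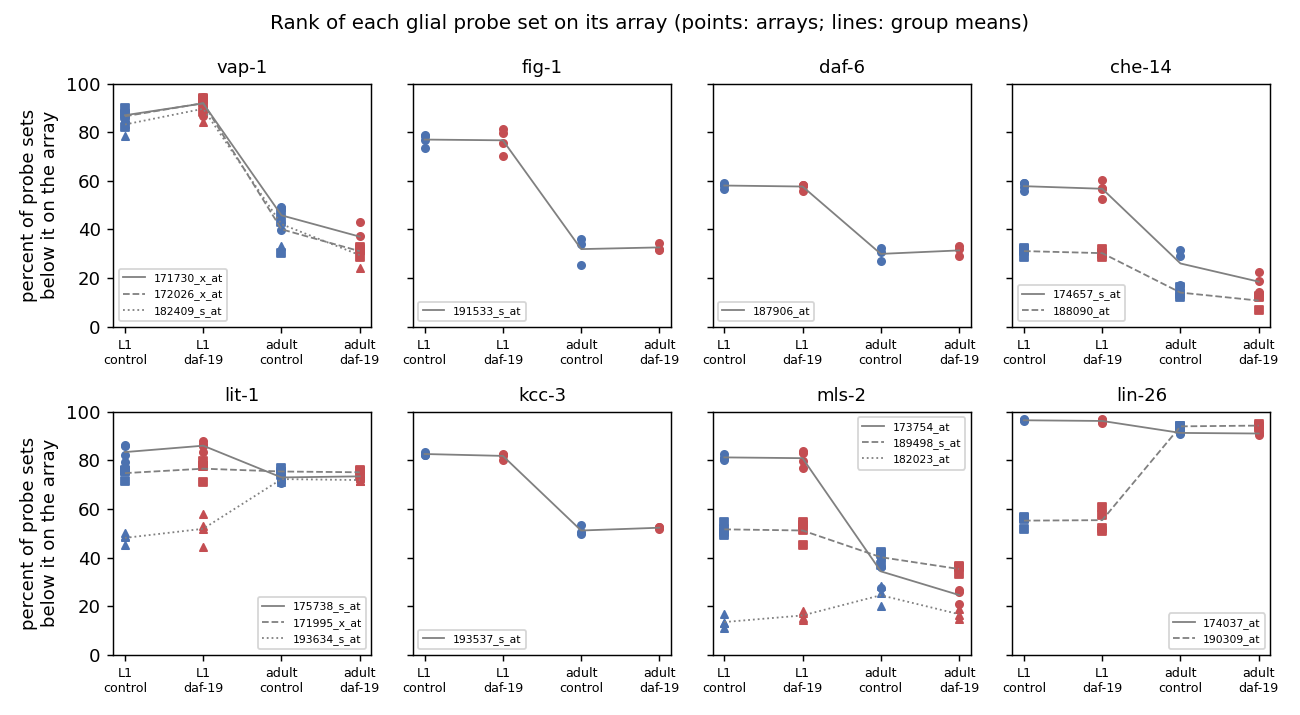
Share of the tested probe sets on the same array that lie below each glial probe set, in percent (vertical axis), in the 4 groups (horizontal axis); points are arrays, lines join group means, and line style marks the probe set. vap-1, fig-1, kcc-3 and the brightest mls-2 probe set drop from L1 to adults in both genotypes, while 1 lin-26 and 1 lit-1 probe set rise and the brightest of each gene does not.

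Other genes of glia, listed from knowledge of the tissue, held no call between genotypes. Of 21 listed, 18 were measured, and 0 were called at L1, in adults or between the stages, where 1.22% of genes were called at L1 and 1.06% in adults by their brightest probe set. Unadjusted p was under 0.05 for 0 of them at L1, 2 in adults and 1 in the difference. Over all probe sets it was so for 9.87%, 7.88% and 8.93%. Their median was 0.025 at L1 and -0.04 in adults, against 0.005 and 0.03 over all genes. The smallest p at L1 belonged to clh-1, a chloride channel of sheath glia (0.30, SE 0.15, adjusted p = 0.586), and to hlh-31 (-0.155, SE 0.11, adjusted p = 0.753). In adults they belonged to ztf-16, a zinc-finger gene (-0.30, adjusted p = 0.308), and unc-130, a forkhead gene (-0.46, adjusted p = 0.367). Against the array median, 15 of the 18 were lower and 1 higher in adult controls, where 86.2% of all probe sets were called between the stages, 11803 of them lower and 7624 higher.

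The list around LIT-1 and the tip of the sense organ held 8 genes, all measured. Of these, 0 were called by limma between genotypes, where 1.22% of all genes were called at L1 and 1.06% in adults. Unadjusted p was under 0.05 for 2 in adults and 0 at L1, and for 7.88% and 9.87% of all probe sets. Among them wsp-1, the Wiskott-Aldrich gene that acts with LIT-1 in actin remodelling, differed by 0.245 at L1 (SE 0.12, adjusted p = 0.511), and the beta-catenin gene sys-1 by -0.165 at L1 (adjusted p = 0.591) and -0.33 in adults (adjusted p = 0.208). The gene tap-1 differed by -0.35 in adults (adjusted p = 0.599). Among 3 other cation and chloride cotransporters 0 were called, and kcc-2 differed by 0.09 and nkcc-1 by -0.06 at L1. Of 3 relatives of lin-26, 0 were called, with lir-1 at -0.195 and lir-2 at 0.14 at L1. Unadjusted p was under 0.05 for 0 genes of either list. At the shares given above, 0 calls in lists this short do not set them apart from all genes.

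Relatives of DAF-6 and CHE-14 did include changed genes. Of 27 Patched and Dispatched relatives 25 were measured; 2 fell at L1, 1 rose in adults and 1 differed between the stages, where 1.22% of all genes were called at L1, 1.06% in adults, and 0.914% of probe sets between the stages. The gene ptr-11 fell from 7.62 ± 0.14 (SD, n = 4) to 7.08 ± 0.14 at L1 (-0.54, SE 0.10, limma adjusted p = 0.0100), with mutants at 6.89 to 7.21 and controls at 7.43 to 7.75. Its dimmer probe set fell as well (-0.55, adjusted p = 0.0276). In adults ptr-11 read 4.84 in mutants and 4.65 in controls, and its difference between stages of 0.73 passed (adjusted p = 0.0285). The latter was called in 12 of 24 alternatives, and not with joint quantile normalization (adjusted p = 0.109), quantile normalization within each stage (0.0822) or the Gapdh covariate (0.139). The gene ptr-14 fell at L1 by 0.585 (SE 0.13, adjusted p = 0.0429), a call lost with the replicate block within each stage (0.0557) and held with the block at L1 only (0.0391). It was called in 8 of 25 alternatives. In adults ptr-20 rose by 0.49, from 6.91 to 7.40 (adjusted p = 0.0289), a call made in 19 of 26 alternatives. With the Gapdh covariate, the L1 falls of ptr-11 (adjusted p = 0.106) and ptr-14 (0.460) did not pass.

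Relatives of VAP-1, secreted proteins of the same domain family, were measured for 27 of 29 genes, and without pairing 0 were called by limma at L1 or in adults, where 1.22% and 1.06% of all genes were. Unadjusted p was under 0.05 for 2 and 6 of them, and for 9.87% and 7.88% of all probe sets. The gene scl-5 alone was called for a difference between stages, where 0.914% of all probe sets were. Its difference was -1.31 (SE 0.24, limma adjusted p = 0.0166), and it lay on the same sides as vap-1. It read 6.01, 6.79, 6.08 and 6.17 in L1 mutants and 5.57, 5.83, 5.77 and 5.61 in L1 controls. These did not overlap (0.57, limma adjusted p = 0.124), as in 4.38% of all probe sets. In adults scl-5 read 7.54, 7.23 and 7.23 in mutants and 7.94, 7.95 and 8.35 in controls. These were again apart (-0.75, limma adjusted p = 0.0749), as in 13.3% of all probe sets. With the replicate block within each stage the adjusted p was 0.0521 at L1 and 0.0349 in adults, with the block at L1 only 0.0364 and 0.0311, and with block and Gapdh covariate 0.346 and 0.0434. The call between stages was made in 20 of 25 alternatives, with differences of -1.53 to -1.14. It ended in some fits with 1 adult array removed. Limma gave an adjusted p of 0.0550 and 0.0591 without mutant array 2 or 3, and 0.0528 without control array 3. With the Gapdh covariate it was 0.0876, and 0.0591 with the block beside it. Unlike vap-1, scl-5 was brighter in adults than at L1. Another relative, lon-1, differed by 0.48 at L1 (adjusted p = 0.459) and by 0.75 in adults (adjusted p = 0.251).

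The genes whose values most resembled those of each member were found by correlation over the 14 arrays after each stage's mean was removed, among genes with an SD of at least 0.15; the arrays share their preparation, and the values describe likeness only. Only the stage mean was removed, so the genotype difference within each stage was part of this likeness. Genotype fits of the genes so picked are therefore not separate support. Nearest to vap-1 were C12D5.9 (r of 0.93) and R13D7.2 (0.92). The gene C12D5.9 rose in L1 mutants, from 4.84 ± 0.44 (SD, n = 4) to 6.50 ± 0.59, by 1.66 (SE 0.29, limma adjusted p = 0.00934), and its difference between stages was -2.39 (adjusted p = 0.0170), with the Gapdh covariate 0.0969 and 0.0918. R13D7.2 differed by 0.59 at L1 (adjusted p = 0.252). For the other members the nearest genes were T02H6.11 and cog-1 (fig-1), C44C10.9 and cab-1 (daf-6), skr-21 and cpn-3 (che-14), atf-7 and hrpr-1 (lit-1), tyr-1 and lipl-4 (kcc-3), ugt-57 and C18B2.5 (mls-2), and unc-2 and nra-2 (lin-26). Their r ran from 0.79 to 0.93, and limma called 0 of these 14 between genotypes. The SD of daf-6 (0.083) and of kcc-3 (0.122) was itself under 0.15, so the genes named for these members were matched to small variation.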

How the data were processed

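The authors deposited 1 log2 signal per probe set for each of 14 arrays. How they corrected, summarised and normalized the scans is not given in the sources used here. Each array received biotin-labelled cRNA from 6 ug of total RNA, per the labels. The log2 unit was read from the values. There are no detection calls, so probe sets below an array's lower quartile (3.71 to 3.76 at L1, 4.52 to 4.60 in adults) were treated as dim. Precision is limited by the number of arrays.

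Without 77 control probe sets, 22548 were tested. Of these, 20766 had 1 gene in the platform's annotation table, 887 had several and 895 none listed. One limma 3.58.1 model (R 4.3.3; lmFit, eBayes) gave each of the 4 groups a mean, with 10 residual and 4.18 prior degrees of freedom. Contrasts were mutant minus control at L1 and in adults, the difference of these (adult minus L1), and adult minus L1 in each genotype after subtraction of array medians. P-values were two-sided, adjusted by Benjamini-Hochberg over all tested probe sets, with a threshold of 0.05. Lists used each gene's brightest probe set. The model was tested on simulated data with noise independent between arrays. That test did not cover the deviations shared by L1 arrays of equal number.

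Replicate numbers come from the titles. Same-numbered arrays correlated at L1 by 0.42, 0.32, 0.19 and 0.24, which met the limit of 0.1 for pairing in every pair. In adults they correlated by 0.44, 0.11 and 0.04, which did not. Some arrays of unequal number met the limit too, with 0.18 for L1 mutant array 3 and control array 2. In adults the value was 0.33 for mutant array 2 with control array 3, and 0.29 for mutant array 3 with control array 2. The limit by itself therefore does not establish pairing by number. The main model has no block; the blocked value stands beside a result whose call it changes at L1.

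Members and lists were chosen with earlier results of these data known. Every member is named; from each list, the called genes or, with none called, those 2 with the smallest p; and the 2 genes most like each member. Alternatives were each array left out, trended robust variance, array weights, dim or multi-transcript probe sets left out, 2 quantile normalizations, replicate blocks, fits of 2 groups, deposited values for the stages and, after the data were seen, a block at L1 only, a Gapdh covariate with and without the block, and all arrays numbered 1 left out. Sequences and genome positions are not used here.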

Additional observations from a re-analysis of the deposited data

Results flagged for a closer look

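The difference between stages in the genotype effect on vap-1 passed with replicate number as a block, at -1.47 in the brightest probe set, -1.47 in the next and -1.68 in the dimmest, and limma without a block did not call it. Mutants lay above controls in 4 of 4 numbered pairs at L1. In adults, where equal numbers do not establish pairing, mutants lay below controls in 3 of 3, once by only -0.03 in the second probe set. Without pairing, limma called 0 of the 3 probe sets in adults (adjusted p = 0.880, 0.921 and 0.664).

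A single array stood apart from the rest of its group in 2 member values by Dixon's criterion, which chance meets in about 1 of 20 groups. With 16 probe sets examined in each of the 2 L1 groups, about as many can arise by chance. Adult groups were not examined. For daf-6, L1 mutant array 1 read 5.12, where the others read 5.26 to 5.28. For lit-1, the middle probe set read 6.38 in L1 control array 4, where the others read 6.74 to 6.79.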

How the results depend on the processing

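Over all alternatives, 391 of 404 single values at L1, 394 of 404 in adults and 367 of 388 for the difference between stages kept their side of the threshold with the same sign wherever called; 13, 10 and 21 passed that had not, 0 lost a call because 0 had one, and 22, 14 and 11 uncalled values changed sign. Glial calls at L1 numbered 3 with the replicate block within stage, with the block at L1 only and without arrays numbered 1, and 1 with the block and the Gapdh covariate. In adults they numbered 7 with array weights, 1 with the replicate block and 1 without arrays numbered 1, and between stages 4 with array weights and 3 with either block, with the block and covariate and without arrays numbered 1. The array weights stopped before convergence and gave adult control array 2 a weight of 5.03, where the other arrays had 0.468 to 1.585. Their 7 adult calls were 3 of vap-1, 3 of mls-2 and 1 of che-14, and their 4 calls between stages were 3 of vap-1 and 1 of mls-2. Leaving out single arrays gave 0 to 3 glial calls at L1, 0 to 1 in adults and 0 to 3 between stages. Of the other glial genes, 4 were called in adults with array weights, 0 to 2 in adults and 0 to 1 between stages with single arrays left out, and 1 in each without arrays numbered 1. Counts over all probe sets at L1 were 525 with the replicate block, 615 with it at L1 only, 162 with block and covariate, 98 with 2 groups fitted, 95 with the Gapdh covariate and 153 to 331 with arrays left out. In adults they were 1996 (array weights), 128 (plain probe sets), 427 (replicate block), 376 (block and covariate), 560 (without arrays numbered 1) and 103 to 765 (arrays left out). Between stages they were 905 (array weights), 420 (replicate block), 332 (block at L1 only), 97 (Gapdh covariate), 499 (without arrays numbered 1) and 91 to 562 (arrays left out).

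Adult replicate numbers share only a number; with them in the block vap-1 passed in its dimmest probe set (adjusted p = 0.0381) but not the others. For stages, 5 glial probe sets in controls and 6 in mutants passed among plain probe sets, since fewer were tested. Signs turned on the deposited scale by its construction: in controls and mutants to 0.218 and 0.135 (che-14, dimmer), 0.843 and 0.551 (lit-1, brightest), 0.443 and 0.201 (mls-2, middle), 1.12 and 0.757 (mls-2, dimmest) and 0.198 and 0.268 (lin-26, brighter). With joint quantile normalization the dimmest mls-2 probe set turned to 0.348 and 0.0111, and the middle lit-1 one to -0.151 in mutants; the cause was not tested.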
